A study of Rattus norvegicus with 7 samples.

Results

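Transcripts of the cytosolic chaperone Hsp90 and of its cochaperones were compared in rat mesenchymal stem cells (rMSCs) on 3 surfaces. The members were taken by gene symbol and are 10 of the 17147 genes listed for each library: the 2 cytosolic Hsp90 genes, Hsp90aa1 and Hsp90ab1, and 8 cochaperone genes, Chordc1, Ahsa1, Stip1, Cdc37, Ptges3, Fkbp4, Ppid and St13. All 10 passed the filter on low values. The study asked which transcripts differ in rMSCs that adhere to ISB-P, a super-elastic polyurethane copolymer of polycaprolactone made with propoxylated isosorbide, with respect to those on polycaprolactone (PCL). The cells were primary bone marrow cells from a single 6-week-old male Sprague-Dawley rat, with no genetic change and no added agent. In every group 20000 cells were seeded in alpha MEM with serum, and RNA was collected 4 h later. The groups were tissue culture plate (TCP, 1 library), a PCL film of 16 mm in diameter (3 libraries) and an ISB-P film of the same diameter (3 libraries), both films being sterilized with ethylene oxide gas.

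Hsp90 is an ATP-driven dimer that holds partly folded client proteins, above all kinases and steroid hormone receptors, while they mature. Clients reach it from Hsp70 through the adaptor Stip1, and other cochaperones then set the pace of its ATP cycle, deliver kinases or hold the closed state. The inducible gene Hsp90aa1 and the largely constitutive gene Hsp90ab1 encode closely related proteins, and several genes of the system are known targets of heat shock factor 1, which binds repeats of the unit GAA and its reverse complement TTC, the heat shock element.

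Promoter windows of RefSeq (assembly GRCr8, 250 bases before to 50 after the transcript start of the table) were found for 8 of the 10 members, but not for Hsp90aa1 and St13. They are shown because the element is the sequence feature by which genes of this system are best known. The windows were searched on both strands for a pair of units (GAANNTTC or TTCNNGAA, each its own reverse complement) and for 3 units in a row (GAANNTTCNNGAA or TTCNNGAANNTTC, which hold 2 overlapping pairs each). Chordc1, Stip1, Cdc37 and Fkbp4 held a pair, which is 4 of 8 windows, against 15.9% of the 33469 windows in the table and 11.6% of those of the tested genes. In Chordc1 alone of the 8 were 3 units in a row found, beginning at base 11 after the start with further units behind it, and such a run was in 0.798% of all windows. The 4 stretches follow with the matched bases in capitals, the first at chr8:23650811-23650870 (plus strand), the others at chr1:213657635-213657682, chr8:27967039-27967086 and chr4:163398028-163398075 (minus strand), each read 5′ to 3′ along its gene.
Chordc1: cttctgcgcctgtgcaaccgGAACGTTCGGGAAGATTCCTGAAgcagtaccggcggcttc
Stip1: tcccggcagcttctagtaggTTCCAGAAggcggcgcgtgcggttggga
Cdc37: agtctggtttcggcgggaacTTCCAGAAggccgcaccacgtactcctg
Fkbp4: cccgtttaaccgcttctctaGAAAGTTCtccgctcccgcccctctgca
Counted from the transcript start, the pair of Stip1 began at -8, that of Cdc37 at -136 and that of Fkbp4 at -137. The window of Hsp90ab1 (chr9:22930173-22930472, plus strand) held neither form, nor did those of Ahsa1, Ptges3 and Ppid. It is given whole, since Hsp90ab1 was 1 of the 2 members called between the films.
Hsp90ab1: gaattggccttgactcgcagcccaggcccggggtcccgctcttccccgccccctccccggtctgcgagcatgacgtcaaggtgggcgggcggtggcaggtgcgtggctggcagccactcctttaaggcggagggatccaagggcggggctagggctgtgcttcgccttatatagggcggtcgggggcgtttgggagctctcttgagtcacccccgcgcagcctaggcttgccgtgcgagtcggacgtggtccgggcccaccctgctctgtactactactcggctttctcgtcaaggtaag
A match is a description of letters and not a bound site, and a window without a match says nothing of a heat shock element elsewhere.

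The values are FPKM, in which the fragments of a gene are divided by its length and by the library's total, so levels of different genes can be set side by side. They summed to between 539393 and 660124 per library, with 4537 to 5105 genes listed at 0, and the number of reads behind them is unknown. Mesenchymal markers were present in all 7 libraries, at unlike levels. Thy1 ran from 925 to 1210 FPKM, with Cd44 and Itgb1 also high and Pdgfrb from 86.6 to 177. Nt5e (8.13 to 12.9 FPKM), Eng (11.1 to 19.2) and Vcam1 (11.2 to 32.8) were much lower. Endothelial markers summed to at most 0.565 FPKM. Cd3e was listed at 0 throughout, but so was the housekeeping gene Hprt1, so a listed 0 may be a failed estimate. The summed haematopoietic markers, 6 of 7 of them in the tables and mostly Lyz2, were 97.8 FPKM on TCP, 24.8 to 30.1 on PCL and 28.2 to 34.4 on ISB-P. The 3 adipocyte markers, mostly Fabp4, summed to 75.9 FPKM on TCP, 20.0 to 32.0 on PCL and 23.6 to 41.0 on ISB-P. In bulk RNA, fewer cells of a type and less RNA per cell cannot be told apart. The study speaks of triplicate experiments, and whether the libraries of a film came from separate preparations of cells is not given in the sources used here, so p-values measure the spread between these libraries.

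Hsp90ab1 (1.91-fold) and the cochaperone Stip1 (1.89-fold) rose on ISB-P with respect to PCL, and the other 8 members did not pass the test without a replicate block. At an adjusted p under 0.05 in limma, 2 of the 10 members thus rose and 0 fell, where 1.1% of the 9467 tested genes rose and 0.623% fell. The libraries of the films did not overlap for 5 members, Hsp90aa1, Hsp90ab1, Ahsa1, Stip1 and Fkbp4, all higher on ISB-P, against 8.17% of tested genes that were higher and 9.54% that were lower without overlap. The member median of the log2 difference was 0.64, and that of all tested genes was 0.02. Within the replicate numbers of the labels, ISB-P was above PCL in all 3 pairs for 9 of 10 members, Cdc37 being the exception, against 30.5% of tested genes higher and 27.7% lower in all pairs. When the limma fit had a block for the replicate number, 8 members rose and 0 fell, where 13% of tested genes rose and 11.4% fell. The thresholds of the study were over 2-fold, an unadjusted p under 0.1 and 16 FPKM or more on either film. Applied to the limma values, they called Hsp90aa1 and Chordc1 higher, as they did 0.613% of tested genes. They called 0 members lower, against 0.0739% of tested genes. The study itself used other software and named Hsp90ab1 as upregulated on ISB-P, beside Hsp90aa1 and Chordc1. It also reported higher Hsp90aa1 on ISB-P than on PCL by quantitative PCR.

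**Figure D1:**
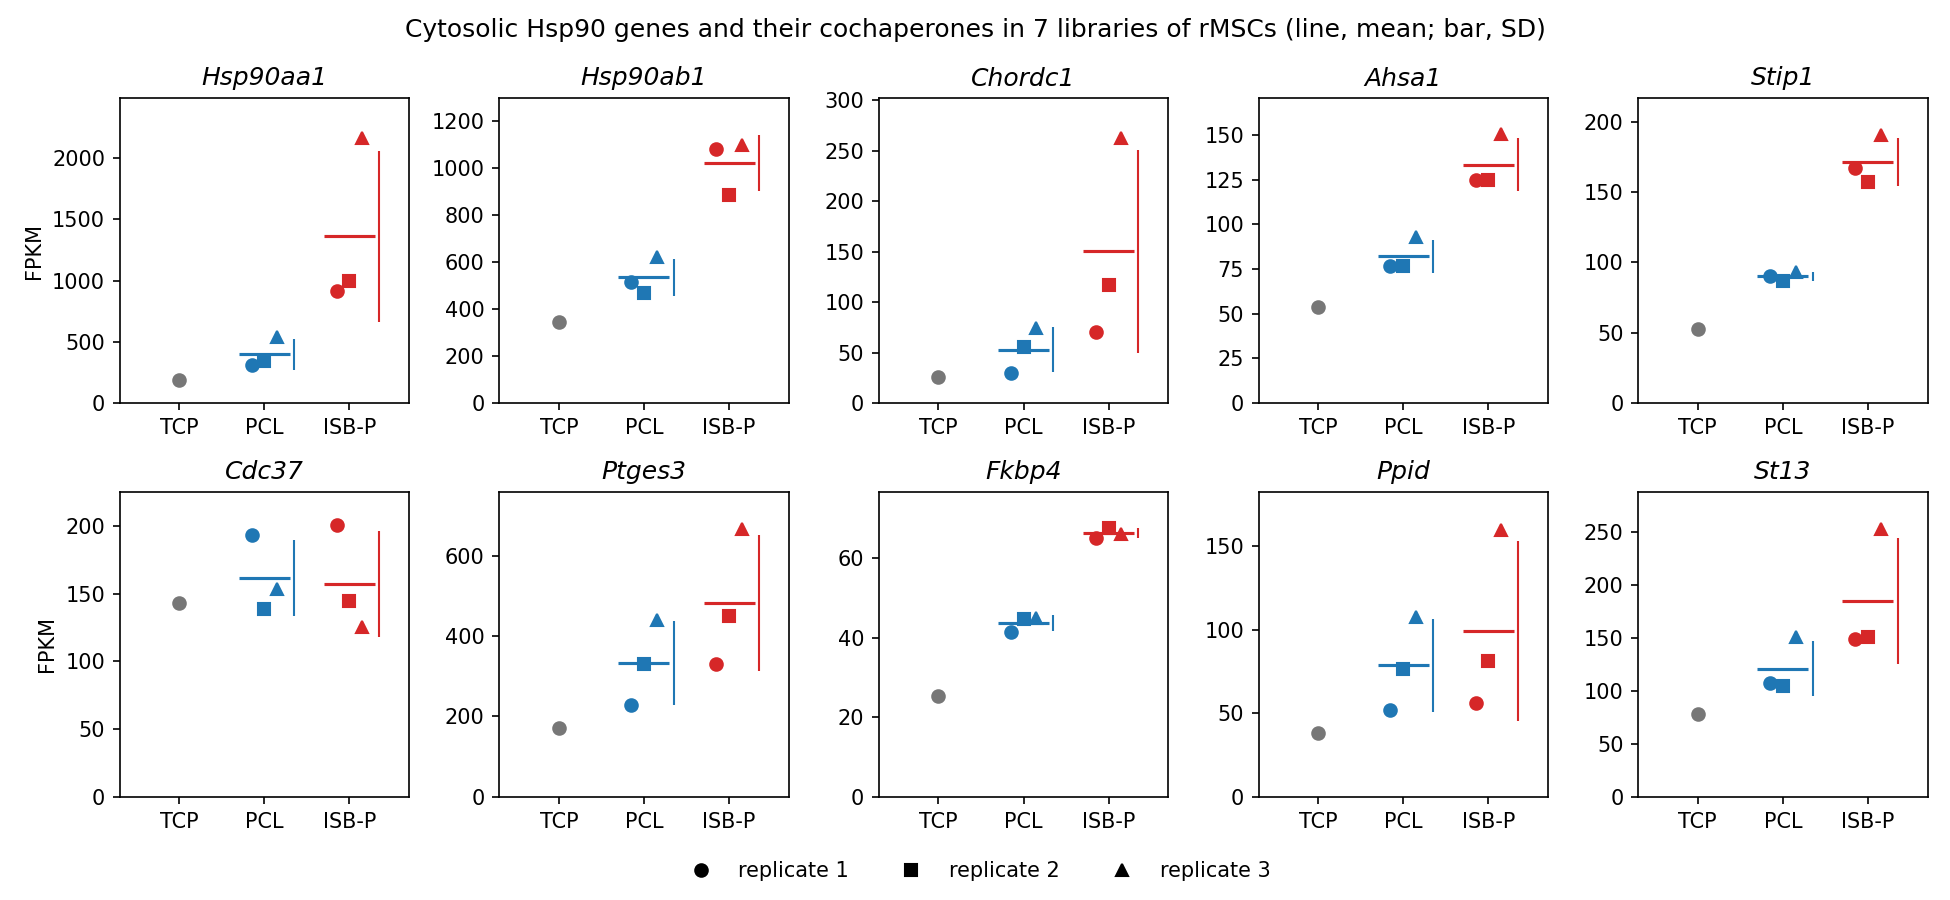
FPKM (y axis, from 0) of each of the 10 genes in the 7 libraries by surface (x axis), with the marker shape giving the replicate number, a line at the mean and a bar of 1 SD over the 3 libraries of a film. The films are apart for Hsp90aa1, Hsp90ab1, Ahsa1, Stip1 and Fkbp4, and the TCP library is below all 3 PCL libraries for every gene but Cdc37. The replicate 3 libraries are the highest of both films for 8 of the 10 genes. Of all tested genes, 51.5% were higher in replicate 3 than in replicate 1 on both films. The share with replicate 3 the highest on both cannot exceed this.

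Hsp90aa1, the heat-inducible cytosolic Hsp90, had 310.1, 346 and 542 FPKM in PCL replicates 1, 2 and 3. On ISB-P the replicates of these numbers had 920.1, 1002 and 2167 FPKM. ISB-P replicate 3 stood far above the other libraries, yet the lowest ISB-P library was still above the highest PCL library. The means were 399 ± 125 and 1363 ± 697 FPKM (SD, n = 3 each), and the difference on the log2(FPKM + 1) scale was 1.70 with a standard error of 0.37, a 3.24-fold difference. The adjusted p was 0.0922 in limma and 9.32e-06 with the replicate block, whose standard error was 0.09. Within replicate numbers 1, 2 and 3 ISB-P was 2.97, 2.89 and 4.00 times PCL. With any 1 film library left out the adjusted p of Hsp90aa1 was between 0.0720 and 0.370 in limma. Without the same number on both films, choices made after the values were seen, it was 0.0335 without replicate 3 and 0.192 without replicate 1, with log2 differences of 1.55 and 1.76.

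Hsp90ab1, the largely constitutive cytosolic Hsp90, had 516, 466 and 620.1 FPKM on PCL. On ISB-P it had 1079.8, 882 and 1097 FPKM. The 3 ISB-P libraries lay close together and all above PCL. The means were 534 ± 78.5 and 1019.7 ± 119 FPKM (SD, n = 3 each), with a log2 difference of 0.93 (standard error 0.15), a 1.91-fold rise with an adjusted p of 0.0405 in limma and 5.02e-05 with the block. Without any 1 of the 6 film libraries the adjusted p of Hsp90ab1 went above the threshold, to between 0.0763 and 0.214, while the log2 difference stayed between 0.84 and 1.05.

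Stip1, also known as Hop, links Hsp70 to Hsp90 and so hands clients over. It had 90.3, 86.8 and 93.2 FPKM on PCL. The same transcript had 167, 157 and 190.3 FPKM on ISB-P. The spread within each film was small beside the gap between them, and Stip1 had the lowest adjusted p of the members without the block: 90.1 ± 3.19 against 172 ± 17.0 FPKM (SD, n = 3 each), a log2 difference of 0.92 (standard error 0.12), adjusted p = 0.0220 in limma. With the block its adjusted p was 6.02e-05, above those of both Hsp90 genes. The call without the block was lost without any 1 of 5 film libraries, with adjusted p-values up to 0.170, and kept without ISB-P replicate 3.

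Ahsa1 encodes the activator that speeds the ATPase of Hsp90. Its values were 76.9, 76.4 and 92.9 FPKM on PCL. They were 125, 125 and 150.3 FPKM on ISB-P. The films did not overlap, and ISB-P was 1.62, 1.63 and 1.62 times PCL within the 3 replicate numbers. The log2 difference was 0.69 (standard error 0.14), with an adjusted p of 0.0832 in limma and 1.89e-04 with the block.

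Fkbp4, or FKBP52, is an immunophilin of steroid receptor complexes. It had 41.5, 44.7 and 45.0 FPKM on PCL. The ISB-P libraries had 65.1, 67.5 and 65.9 FPKM. Of the 10 members it had both the lowest mean and the smallest SD in FPKM on each film. These were 43.7 ± 1.93 and 66.2 ± 1.23 FPKM (SD, n = 3 each), and the libraries of the films lay clearly apart. Its log2 difference was 0.59 (standard error 0.11), with an adjusted p of 0.0654 in limma and 6.49e-04 with the block. With no filter on low values, Fkbp4 passed the threshold by a narrow margin.

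Chordc1, or morgana, is a CHORD-domain protein that binds Hsp90. It had 29.4, 55.6 and 74.0 FPKM on PCL. On ISB-P it had 70.8, 117 and 263 FPKM. The films overlapped, since ISB-P replicate 1 lay below PCL replicate 3, but within the 3 replicate numbers ISB-P was 2.41, 2.11 and 3.55 times PCL. The log2 difference, 1.37, was behind only that of Hsp90aa1 among the members, and its standard error of 0.52 was the largest of the 10. The adjusted p was 0.347 in limma and 1.85e-04 with the block. With 1 film library left out the difference of Chordc1 ran from 0.87 without ISB-P replicate 3, which is under 2-fold, to 1.81 without ISB-P replicate 1.

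Ptges3 encodes p23, which binds the closed state of Hsp90. It had 229, 329.9 and 439.7 FPKM on PCL. On ISB-P it had 330.7, 449.7 and 665 FPKM. St13, or Hip, an Hsp70-binding partner of the receptor complex, had 107, 105 and 151 FPKM on PCL and 149.7, 151 and 253 on ISB-P. For both genes the films overlapped and replicate 3 was the highest library of each. The log2 differences were 0.52 (standard error 0.32) for Ptges3 and 0.58 (standard error 0.25) for St13. Their adjusted p-values were 0.655 and 0.440 in limma, and 8.03e-04 and 0.00104 with the block. Without ISB-P replicate 3 the differences were 0.26 for Ptges3 and 0.33 for St13, and without PCL replicate 1 that of Ptges3 was 0.28.

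Ppid, or cyclophilin 40, is an immunophilin that docks on the tail of Hsp90. It had 52.0, 76.4 and 108 FPKM on PCL. On ISB-P it had 56.3, 81.6 and 160.0 FPKM. The films overlapped over most of their range, and the ratio within replicate numbers was 1.08, 1.07 and 1.48. The log2 difference of 0.26 (standard error 0.42) passed neither fit, with an adjusted p of 0.928 in limma and 0.0905 with the block, and it was -0.15 without ISB-P replicate 3.

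Cdc37, the cochaperone that brings kinases to Hsp90, did not pass either fit. It had 193, 138 and 153 FPKM on PCL. The values on ISB-P were 200.5, 145 and 125 FPKM. The means were 162 ± 28.2 and 157 ± 39.1 FPKM (SD, n = 3 each), and the log2 difference was -0.06 (standard error 0.21), with an adjusted p of 0.963 in limma and 0.651 with the block. The 95% interval of that difference ran from -0.57 to 0.45 without the block and from -0.25 to 0.13 with it, so a change of this size in either direction was not resolved. Its sign turned without ISB-P replicate 3 (0.09) and without PCL replicate 1 (0.08).

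**Figure D2:**
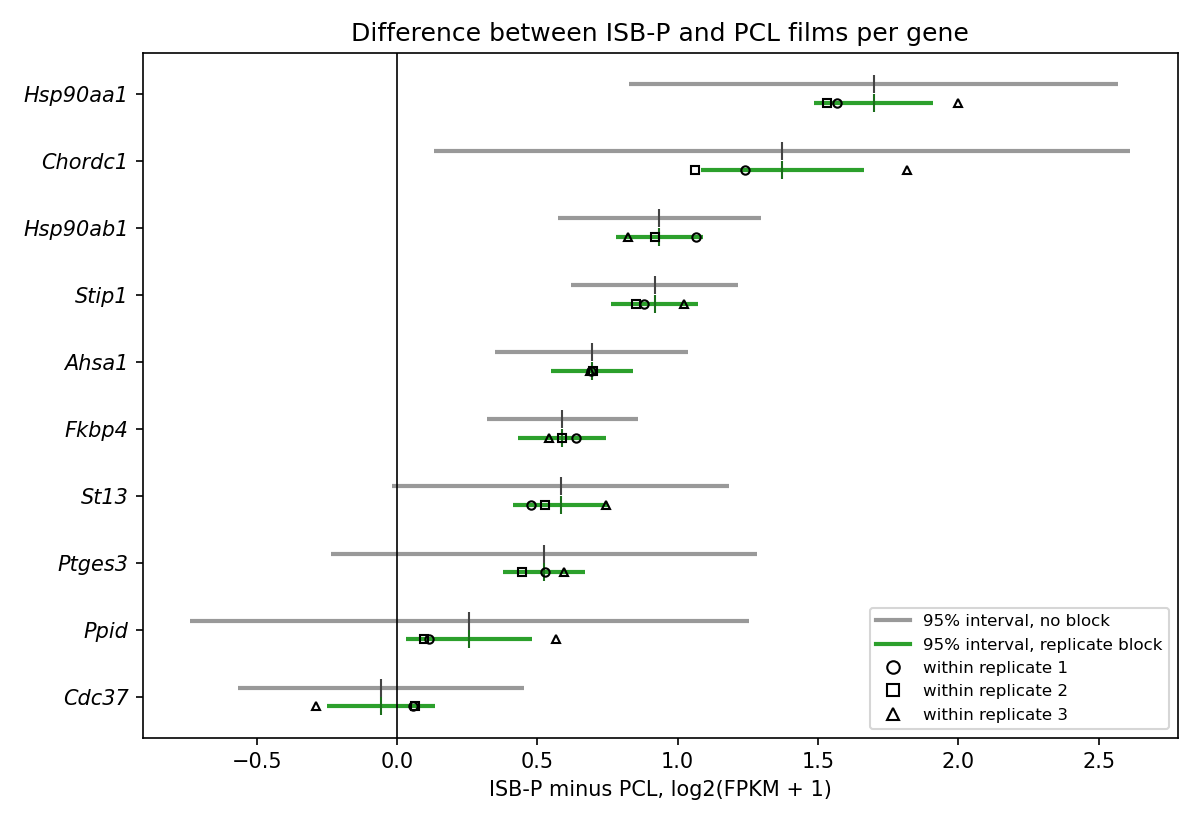
Difference of ISB-P minus PCL in log2(FPKM + 1) (x axis) for each gene (y axis), with 95% intervals of the limma fit without the replicate block (grey) and with it (green), and open markers for the 3 within-replicate differences. The estimate is the same in both fits and the intervals with the block are narrower, most of all for Hsp90aa1, Chordc1, Ptges3 and Ppid, while the interval of Cdc37 spans 0 in both.

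The members differed among themselves in how far the libraries of 1 film were apart. From replicate 1 to replicate 3, the ratio was 2.52 on PCL and 3.71 on ISB-P for Chordc1. It was 2.08 and 2.84 for Ppid, 1.92 and 2.01 for Ptges3, and 1.75 and 2.35 for Hsp90aa1. Fkbp4 (1.08 and 1.01) and Stip1 (1.03 and 1.14) hardly moved between these libraries, and Cdc37 was lower in replicate 3 on both films (0.793 and 0.624). Over all tested genes, 51.5% were higher in replicate 3 than in replicate 1 on both films. Ahsa1 (1.21 and 1.20), Hsp90ab1 (1.20 and 1.02) and St13 (1.41 and 1.69) lay between.

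The order of the members by level, per length, was shared in part by the 3 surfaces. Ptges3 ranked 3 on each, below the 2 Hsp90 genes. On PCL the order of mean FPKM was Hsp90ab1, Hsp90aa1, Ptges3, Cdc37, St13, Stip1, Ahsa1, Ppid, Chordc1 and Fkbp4. Of the neighbours in it, Ptges3 and Cdc37, and likewise St13 and Stip1, had libraries that did not overlap, and all other neighbours overlapped. Within single PCL libraries the order was steadier. Ahsa1 was above Ppid, and Chordc1 above Fkbp4, in 2 of the 3, and the other neighbours kept this order in all 3. On ISB-P Hsp90aa1 had the higher mean of the Hsp90 genes, though its libraries overlapped those of Hsp90ab1. Ptges3, St13, Stip1, Cdc37, Chordc1, Ahsa1, Ppid and Fkbp4 followed, with gaps only above and below Ptges3. Within single ISB-P libraries only the neighbours at these gaps kept their order in all 3. St13 was above Stip1, and Chordc1 above Ahsa1, in 1 of the 3. On TCP the order was that of PCL as far as St13, and Chordc1 and Fkbp4 were lowest, both at 25.4 FPKM.

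The balance between the Hsp90 genes and between Hsp90 and its cochaperones was computed within each library, so that it did not depend on scaling between libraries. Hsp90aa1 made up 35.5% of the summed cytosolic Hsp90 FPKM on TCP. It made up 37.5%, 42.6% and 46.6% in PCL replicates 1 to 3, and 46.0%, 53.2% and 66.4% on ISB-P. ISB-P replicate 1 lay just below PCL replicate 3, so the films overlapped, though each ISB-P library was above the PCL library of its number. The log2 ratio of Hsp90aa1 to Hsp90ab1 was -0.45 ± 0.27 on PCL and 0.31 ± 0.62 on ISB-P (SD, n = 3 each), a difference of 0.76 with p = 0.2 in a two-sided exact permutation test, which cannot go below 0.1 with 3 against 3. Within replicate numbers 1 and 2 the difference of that ratio was 0.50 and 0.61, and it was larger within number 3.

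Summed over the 2 genes, Hsp90 was at 826, 812 and 1162 FPKM on PCL. It was at 1999.9, 1884 and 3264 FPKM on ISB-P and at 533 on TCP. The 8 cochaperones summed to 819, 913 and 1157 FPKM on PCL, to 1165, 1294 and 1873 on ISB-P and to 587 on TCP. For both sums the lowest ISB-P library was above the highest PCL library. Cochaperone FPKM per unit of Hsp90 FPKM was 0.992, 1.12 and 0.996 on PCL, 0.583, 0.687 and 0.574 on ISB-P and 1.10 on TCP. The log2 of this ratio was 0.05 ± 0.10 on PCL and -0.71 ± 0.14 on ISB-P (SD, n = 3 each). The difference of -0.76 had p = 0.1 in the exact permutation test, the smallest it can give, and was -0.77, -0.71 and -0.79 within the replicate numbers, where the smallest p of an exact sign-flip test is 0.25. All 10 members together held 0.208% of all FPKM on TCP, 0.303% to 0.388% on PCL and 0.534% to 0.778% on ISB-P.

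**Figure D3:**
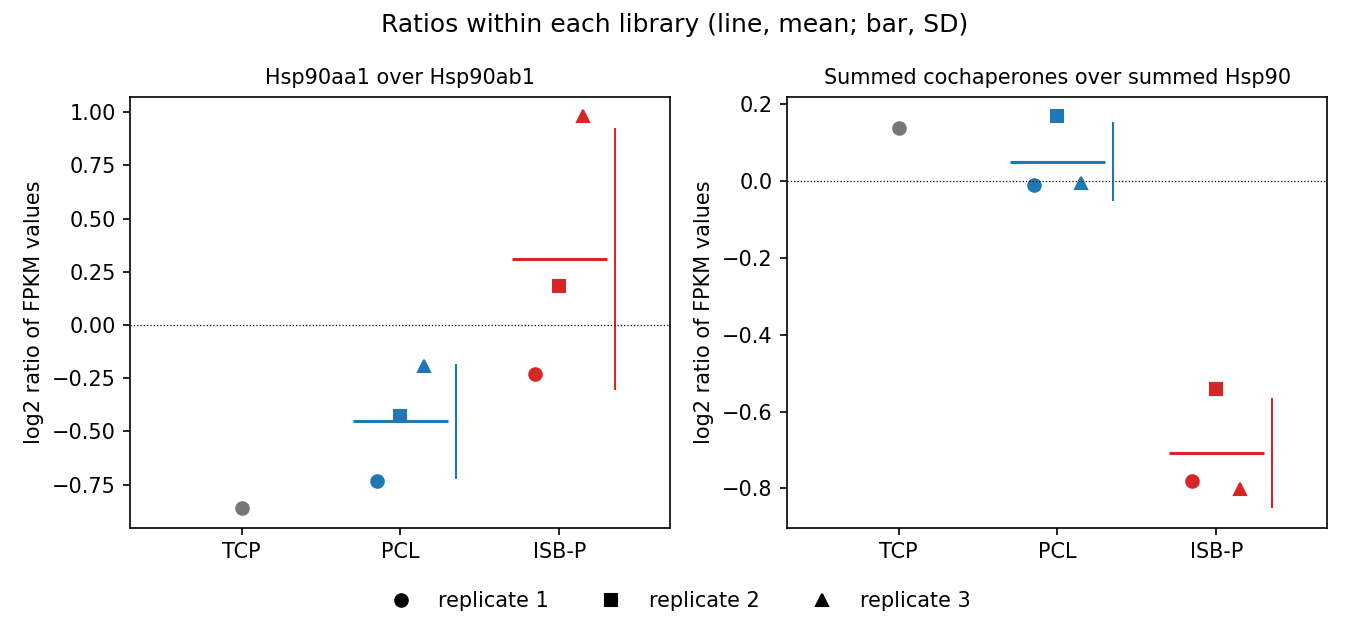
The log2 ratio (y axis) of Hsp90aa1 to Hsp90ab1 (left) and of the summed cochaperones to summed Hsp90 (right) in each library by surface (x axis), with a line at the mean and a bar of 1 SD over 3 libraries. On the left the films overlap at -0.23 and -0.19, and on the right all 3 ISB-P libraries, from -0.80 to -0.54, lie below the PCL libraries, from -0.01 to 0.17.

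The single TCP library allows no replicate check, and in the fit of all 7 libraries it was assumed to vary like the films. With respect to PCL all 10 members were lower on TCP, and 2 fell past an adjusted p of 0.05 in limma, Stip1 (52.8 FPKM on TCP, log2 difference -0.76, adjusted p = 0.0483) and Fkbp4 (25.4 FPKM, -0.76, adjusted p = 0.0349), where 4% of tested genes fell and 3.78% rose. TCP was below all 3 PCL libraries for 9 of the 10 members and above them for 0, against 35.9% and 31.2% of tested genes. Hsp90aa1 had 189 FPKM on TCP (log2 difference -1.03, adjusted p = 0.332 in limma) and Hsp90ab1 had 344 (-0.62, adjusted p = 0.154). The other cochaperones were at 143 FPKM for Cdc37, 170.3 for Ptges3, 78.0 for St13, 53.6 for Ahsa1 and 38.1 for Ppid. The member median of TCP minus PCL was -0.76 and that of all tested genes -0.06. After upper quartile scaling or quantile normalization all 10 were still below PCL, with medians of -0.66 and -0.67, but 0 passed the threshold, and 0 passed it without any 1 PCL library or without ISB-P replicate 1 or 2. Markers moved with this comparison: Lyz2, Csf1r and Cd68 were higher on TCP than on PCL (log2 differences 1.85, 1.22 and 1.40, adjusted p = 0.00527, 0.00668 and 0.0478 in limma), and Gapdh, a glycolytic enzyme used as a reference, was lower (-0.69, adjusted p = 0.0408). Of the 29 client kinases tested, 12 were lower on TCP than on PCL and the rest higher, where 5230 of all 9467 tested genes were lower. The median log2 difference of the 29 was 0.06, where that of all tested genes was -0.06. Plk1 and Aurkb were lower by the most. Plk1 had 5.66 FPKM on TCP, 48.3 to 50.7 on PCL and 31.6 to 38.5 on ISB-P. Aurkb had 3.05 FPKM on TCP, 25.1 to 27.3 on PCL and 24.7 to 27.3 on ISB-P. The part of the markers, Gapdh and these kinases in the result was not tested.

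Against the same TCP library, 5 members were higher on ISB-P past an adjusted p of 0.05 in limma and 0 were lower, where 6.37% of tested genes were higher and 6.11% lower. These were Hsp90aa1 (7.20 times the TCP value, log2 difference 2.73, adjusted p = 0.0192), Hsp90ab1 (2.97 times, 1.56, adjusted p = 0.00647), Stip1 (3.25 times, 1.68, adjusted p = 0.00239), Fkbp4 (2.60 times, 1.35, adjusted p = 0.00369) and Ahsa1 (2.48 times, 1.29, adjusted p = 0.0101). Chordc1 was 5.91 times its TCP value, with an adjusted p of 0.0928 in limma. Ptges3 (2.83 times), Ppid (2.61 times) and St13 (2.37 times) had adjusted p-values from 0.0789 to 0.223, and Cdc37 was at 1.10 times. Lyz2, Cd68 and Csf1r were lower on ISB-P than on TCP (log2 differences -1.58, -1.61 and -1.10, adjusted p = 0.00777, 0.0225 and 0.00779 in limma) and Gapdh was higher (0.74, adjusted p = 0.0237), and their part in the result was not tested. The spread of TCP was again taken from the films, so these p-values set the films against 1 library and not against TCP as a condition. This comparison shares the ISB-P libraries with that against PCL and the TCP library with the one before it.

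The rest of the Hsp90 pathway was described from lists of textbook partners. Neither organelle form of Hsp90 passed the test, with the block or without it. Hsp90b1, the form of the endoplasmic reticulum, was 412 ± 88.6 FPKM on PCL and 439.6 ± 142 on ISB-P (SD, n = 3 each), a log2 difference of 0.07 with an adjusted p of 0.963 in limma. Trap1, the mitochondrial form, was 36.7 ± 1.26 and 34.7 ± 3.86 FPKM (-0.08, adjusted p = 0.920).

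Of 24 further Hsp90 cofactors tested, 0 were called in limma without the block, with 1 at an unadjusted p under 0.05 (Fnip2), where 1145 of the 9467 tested genes had one. With the block 5 rose and 0 fell, where 13% of tested genes rose and 11.4% fell. Their median log2 difference was 0.00. The largest was that of Cacybp, a calcyclin-binding adaptor of ubiquitin ligases, at 77.8, 116 and 165 FPKM on PCL and 124, 190.3 and 354 on ISB-P. Its films overlapped, and the log2 difference of 0.82 had an adjusted p of 0.553 in limma and 4.87e-04 with the block. Fnip1, a partner of folliculin, followed at 0.43, and Ahsa2, a homologue of Ahsa1, at 0.41, with adjusted p-values of 0.0198 and 0.00898 with the block. Sugt1 and Fnip2, named after their values were seen, were the others called with the block.

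Of 10 partners that carry clients from Hsp70 to Hsp90 or regulate that step, 6 rose in limma and 0 fell, where 1.1% of all tested genes rose and 0.623% fell. With the block 8 rose, where 13% of tested genes did, and the median log2 difference was 1.63. On TCP 7 of the 10 partners were lower than on PCL, where 5230 of the 9467 tested genes were. The median log2 difference of TCP minus PCL was -0.23 for the 10 partners and -0.06 for all tested genes. Hspa1a and Hspa1b, the inducible Hsp70 genes, had log2 differences of 5.47 and 5.69 between the films. Both were higher on TCP than on PCL, unlike the members. Hspa1a had 91.1 FPKM on TCP, 10.1 to 13.4 on PCL and 263 to 954 on ISB-P. Hspa1b had 17.1 FPKM on TCP, 2.27 to 3.12 on PCL and 146 to 276 on ISB-P. They are near-identical copies, so the division of reads between them is uncertain. The constitutive Hsp70 gene Hspa8 was at 1335 ± 144 FPKM on PCL and 3539 ± 553 on ISB-P (1.40, adjusted p = 0.00831), above the level of either cytosolic Hsp90. The nucleotide exchange factor Hsph1 and the J-domain genes Dnaja1 and Dnajb1 differed by 2.38, 2.10 and 1.86. The promoter windows of this list held a pair of units in 4 of 8 and a run of 3 in 3 of 8, and those of the other cofactors in 2 of 22 and 0 of 22.

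Clients of Hsp90 were counted by their own transcripts. Of 29 client kinases tested, 0 were called in limma without the block, 3 had an unadjusted p under 0.05 (against 1145 of all 9467), and the median log2 difference was -0.01. With the block 0 of the 29 rose and 4 fell, a share near the 11.4% of all tested genes that fell, while 13% of all tested genes rose. The 4 were Pdgfrb, Erbb2, Plk1 and Pdgfra, the last named after its values were seen. Pdgfrb, a growth factor receptor of mesenchymal cells, had 177, 167 and 154 FPKM on PCL and 110, 97.4 and 86.6 on ISB-P, so that the films did not overlap. Its log2 difference was -0.76, with an adjusted p of 0.0510 in limma and 1.41e-04 with the block. Of 6 tested receptors and transcription factors, 0 were called without the block, 1 had an unadjusted p under 0.05 (Ahr), and 3 rose and 1 fell with it, beside 13% and 11.4% of all tested genes. Those that rose were Hif1a (0.58), the glucocorticoid receptor gene Nr3c1 (0.52) and the aryl hydrocarbon receptor gene Ahr (0.47), and Stat3, named after its values were seen, fell by 0.25 on the log2 scale.

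**Figure D4:**
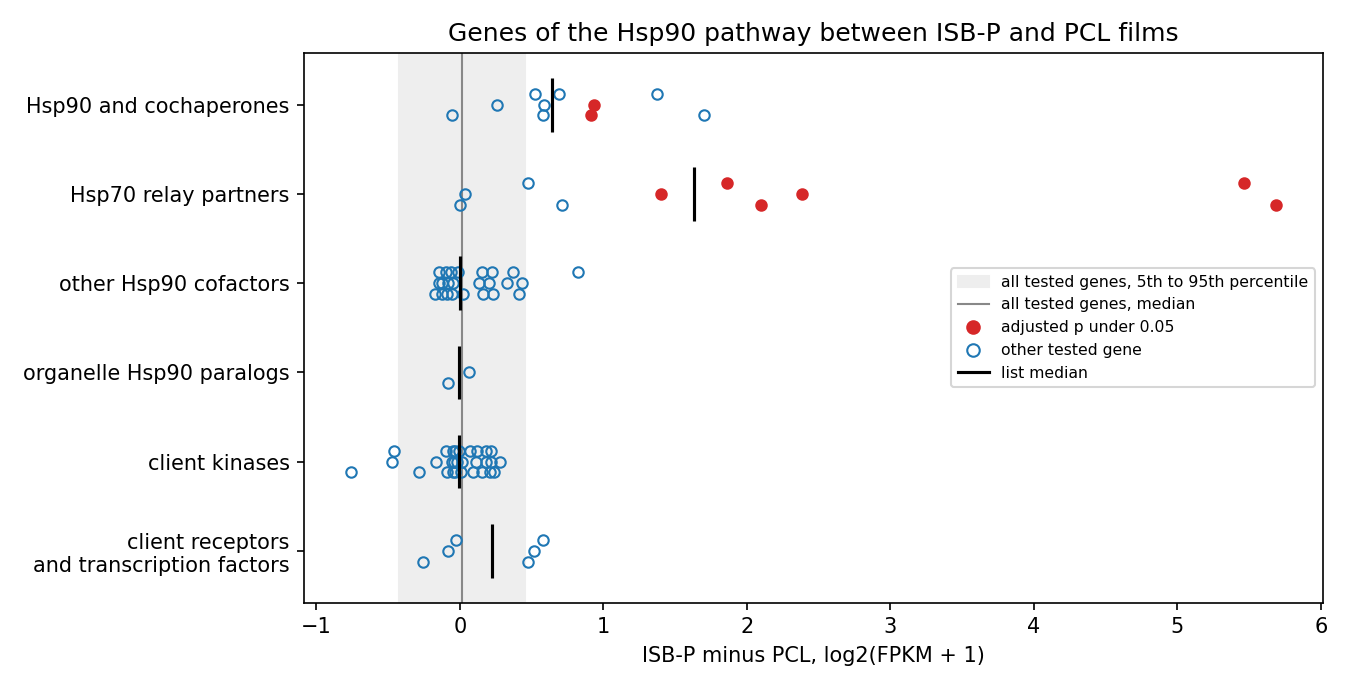
Difference of ISB-P minus PCL in log2(FPKM + 1) (x axis) for each tested gene of 6 lists (y axis), filled where the adjusted p was under 0.05 in limma without the block, with a black bar at each list's median and a grey band from the 5th to the 95th percentile of all tested genes (-0.42 to 0.45). The medians are 0.64 for Hsp90 and its cochaperones, 1.63 for the Hsp70 partners and between -0.01 and 0.23 for the other 4 lists.

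Profiles over the 7 libraries were compared among the 4802 tested genes that averaged 16 FPKM or more, by the root mean square difference of centred log2(FPKM + 1) values. The 5 genes nearest to Hsp90aa1 were F3, which encodes tissue factor (0.18), Dnaja1 (0.24), Hspd1, which encodes mitochondrial Hsp60 (0.27), the glutathione transferase gene Gsta1 (0.32) and Chordc1 (0.33), where the median gene was 1.05 away. F3 had 54.1 FPKM on TCP, 80.4, 109 and 132 on PCL and 237, 297 and 460.0 on ISB-P, rising with the same libraries as Hsp90aa1. The 5 nearest to Hsp90ab1 were Stip1 (0.11), Gadd45a, a stress-induced growth arrest gene (0.15), Hspe1, the partner of Hsp60 (0.15), Ahsa1 (0.15) and the lipid phosphatase gene Ppap2b (0.16), where the median gene was 0.59 away. Hsp90ab1 itself ranked 40 in nearness to Hsp90aa1 and Cdc37 ranked 3522. These distances describe 7 libraries that share their cells and carry no test.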

How the data were processed

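The values deposited by the authors were 1 number per gene symbol in each of 7 libraries, read here as FPKM from the values themselves and from the tools named. The authors made stranded mRNA libraries read as paired ends. The submitters' processing notes name bcl2fastq 2.20.0.422, cutadapt 1.18, TopHat2 2.0.13, Cuffdiff 2.2.1 and the build rn5; settings, and the handling of reads shared by Hsp90aa1, Hsp90ab1 and their pseudogenes, are not given in the sources used here. With no read counts, no counting interval or detection floor is given.

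Values were used as deposited. The 9467 genes that reached 1 FPKM in 3 or more of the 6 film libraries were tested two-sided by limma 3.58.1 in R 4.3.3 (lmFit and trended eBayes) after the transform log2(FPKM + 1), and p-values were adjusted over all of them (Benjamini-Hochberg). Fold changes on this scale understate low genes. Contrasts with TCP used all 7 libraries. The labels number the libraries of each film 1 to 3. Deviations from the film means correlated across genes at r = 0.887, 0.431 and 0.867 for equal numbers. The main fit had no block. Equal numbers were taken as pairs only in the fit with the block and in comparisons within numbers. No batch is stated, so the basis for this pairing is these correlations. Unequal numbers gave -0.356 on average. Since deviations within a film sum to 0, that value follows from the others and is no separate evidence of pairing. Ratios were compared by exact permutation tests.

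Genes named are the members, list genes past the threshold or else the 3 largest differences of each list, the markers, and the 5 nearest profiles to each Hsp90 gene. The reference genes Gapdh and Hprt1 and the client kinase Aurkb were named after their values were seen. Members and lists were chosen with earlier results of these data known. Tomm70, Telo2, Braf and Cd79a were not analysed here. Alternatives covered scaling, pseudocount, filter, block, thresholds and left-out libraries. Python 3.11.15 with matplotlib 3.10.9 drew the figures.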

Additional observations from a re-analysis of the deposited data

How the results depend on the processing

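The number of members called between ISB-P and PCL, 2, was 8 with the replicate block and 1 when only genes of 16 FPKM or more on either film were tested, and 0 to 1 with each film library left out. Without replicate 3 on both films it was 1 and without replicate 1 on both films 0, both chosen after seeing the data. It stayed at 2 under the other alternatives, not always for the same genes. Fkbp4 replaced Hsp90ab1 with no filter. With the thresholds of the study, as read here, applied to the limma values, the 2 were Hsp90aa1 and Chordc1. The other cofactors called went from 0 to 5 and the clients from 0 to 8 with the block. The calls of Hsp90ab1 and Stip1 were kept with it. Over all tested genes the calls were 104 higher and 59 lower, 1228 and 1079 with the block, and 70 higher of 140 after scaling to a common total.

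The members called lower on TCP than on PCL, 2, were 1 with the 16 FPKM filter, 0 after upper quartile scaling, 0 after quantile normalization, 1 after scaling to a common total and 0 to 2 with a film library left out. The 5 called between ISB-P and TCP were 4 to 7 with a library left out. The log2 difference of Cdc37 (-0.06) ranged from -0.25 to 0.091 with a film library left out, turning positive without PCL replicate 1 or ISB-P replicate 3, and was 0.059 without replicate 3 on both films. That of Ppid (0.26) ranged from -0.15 to 0.59, turning negative without the same libraries. The difference in the log2 ratio of Hsp90aa1 to Hsp90ab1 stayed between 0.43 and 1.04, and that of cochaperones to Hsp90 between -0.84 and -0.70, with a library left out. The cause of these changes was not tested, beyond the smaller number of libraries or genes in some. The unknown depth and 3 libraries per film limit precision, and TCP rests on 1 library.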
